A study of Mus musculus with 4 samples.

Results

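The killer cell lectin-like receptor (Klr) genes encode the lectin-type receptors of natural killer (NK) cells, and all genes whose symbol in the deposited feature list begins with Klr and a further letter were described: 26 of 31053 genes, 11 of them Klra genes. They were followed in 4 single-cell libraries of mouse liver, 1 for each pairing of a Mef2d genotype label (KO or WT) with a tissue (premalignant liver, or early hepatocellular carcinoma, eHCC). Neither strain, age, sex, the way tumours arose, the type of Mef2d deletion nor the number of animals per library is given in the sources used here. Tissue was digested with a Miltenyi kit and read with 10x Genomics 5' chemistry, in which a unique molecular identifier (UMI) marks 1 captured RNA molecule, so that levels of different genes can be compared without a length correction. Each group is 1 library, so no replicate spread exists and no test was made. Values are levels in CPM, the UMIs of a gene scaled to a common total of UMIs of the same cells (counts per 1e6). Their 95% intervals (exact Poisson for levels, exact conditional binomial for ratios, Clopper-Pearson for shares) cover counting error only. Sets of 4 values run in the order KO premalignant, WT premalignant, KO eHCC, WT eHCC.

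Receptors of this family sit on NK cells, on innate lymphoid cells of the ILC1 type and on some T cells, where they read MHC class I molecules, stress-induced ligands or lectin-like partners on neighbouring cells. Inhibitory members carry a tyrosine motif in the cytoplasmic tail that recruits phosphatases, whereas activating members lack it and signal through adaptors such as Tyrobp (DAP12), Hcst (DAP10) or Fcer1g. Klra genes encode the Ly49 receptors, each expressed by a part of the NK cells only, and the set of Klra genes differs between inbred mouse strains: Klra8 (Ly49H), for instance, is lacking in BALB/c. The liver is rich in NK cells, ILC1 and NKT cells.

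All 26 genes lie on chromosome 6 (mm10). Klrb1a to Klra2 form the natural killer gene complex at chr6:128609227-131247362, with Klrg1 at chr6:122270596-122282882 and Klrg2 at chr6:38625693-38637242. Klra genes of this complex were read in different cells. Klra4 (Ly49D) and Klra8 (Ly49H) were mostly in NK-like cells, Klra17 (Ly49Q) in plasmacytoid dendritic (pDC)-like cells and Klra2 (Ly49B) in phagocyte-like cells. The 250 bases before the start of these 4 genes are shown for that reason (RefSeq, GRCm38.p6, all on the minus strand, 5' to 3'). Capitals mark bases that were not identical to Klra8 in a global alignment.
Klra8 (chr6:130129899-130130148): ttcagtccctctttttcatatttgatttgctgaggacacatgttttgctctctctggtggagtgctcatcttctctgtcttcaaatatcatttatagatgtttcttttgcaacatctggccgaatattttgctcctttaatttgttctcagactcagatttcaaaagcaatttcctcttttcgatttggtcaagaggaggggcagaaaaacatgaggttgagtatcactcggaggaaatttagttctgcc
Klra4 (chr6:130067272-130067521): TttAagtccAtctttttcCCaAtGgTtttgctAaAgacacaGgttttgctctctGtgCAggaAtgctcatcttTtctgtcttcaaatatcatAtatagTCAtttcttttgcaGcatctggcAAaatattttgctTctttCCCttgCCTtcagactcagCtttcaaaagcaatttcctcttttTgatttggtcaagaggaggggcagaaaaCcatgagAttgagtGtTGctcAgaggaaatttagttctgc
Klra17 (chr6:129876673-129876922): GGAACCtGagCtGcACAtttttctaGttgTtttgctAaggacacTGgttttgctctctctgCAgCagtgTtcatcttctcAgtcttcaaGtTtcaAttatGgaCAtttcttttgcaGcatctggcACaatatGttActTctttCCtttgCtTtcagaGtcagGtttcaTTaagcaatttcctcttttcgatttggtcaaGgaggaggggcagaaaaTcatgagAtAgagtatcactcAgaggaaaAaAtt
Klra2 (chr6:131247363-131247612): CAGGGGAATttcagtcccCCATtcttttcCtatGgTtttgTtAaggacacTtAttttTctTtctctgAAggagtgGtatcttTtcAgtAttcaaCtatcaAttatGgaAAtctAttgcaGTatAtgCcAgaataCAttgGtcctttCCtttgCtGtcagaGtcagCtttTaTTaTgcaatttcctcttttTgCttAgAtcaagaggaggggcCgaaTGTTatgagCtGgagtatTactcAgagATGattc
Klra4 and Klra8, both mostly in NK-like cells, were identical over 84.5% of this stretch, gaps counted as different. Klra17 matched Klra4 over 79.4% and Klra8 over 77.9%, although its UMIs were in other cells, and Klra2 matched Klra8 over 69.2%. Of 23 Klr genes with a RefSeq promoter window (250 bases before to 50 after the start), 8 held the Runx letters TGTGGT on either strand, against 16.8% of all 32851 windows, and these were Klra1, Klrb1a, Klrb1c, Klrc1, Klrc2, Klrc3, Klre1 and Klrk1. The letters TATAAA stood in 8 of the 23 Klr windows and 13.6% of all windows. Among the 11 Klra windows, TATAAA stood in 6 and the Runx letters in 1. Of the other letters searched, the T-box GGTGTGA, TCF CTTTGAA and ETS ACAGGAAG each stood in 1 of the 23 windows, PU.1 GAGGAAGT, which shares its core with the ETS letters, in none, AP-1 TGANTCA in 4 and CCAAT in 9, against 3.98%, 5.14%, 3.58%, 3.2%, 7.81% and 37.4% of all windows. These matches describe letters, not binding.

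After filters and removal of called doublets, the libraries held 8821, 12844, 8382 and 9487 cells with medians of 4312, 4760, 7268 and 8316 UMIs. Between 27 and 46 barcodes were shared by any pair of libraries (0.279% to 0.476% of the smaller). Cell classes were named from clusters made without Klr genes, and no Klr gene served as a marker. NK-like cells numbered 216, 93, 306 and 184, with an Ncr1 UMI in 85.6% to 92.5%, and ILC1-like cells 106, 99, 123 and 147. Those of the WT premalignant library were under the minimum of 100 cells for a comparison, so NK-like and ILC1-like cells were compared together there. This joint class (380, 214, 430 and 334 cells) also held the cells of 1 cluster with both Cd3e and Ncr1 UMIs, 58, 22, 1 and 3 in number. In eHCC, most lymphocyte clusters held cells of 1 library: NK-like clusters 4, 5 and 9 came from the library labelled KO, and cluster 7, with an Itga1 UMI in 55.7% of its cells, from the library labelled WT, where it made up 122 of 184 NK-like cells. Mef2d RNA was not lower under the KO label: its levels over all cells were 101, 71.3, 96.4 and 61.3 CPM and in NK-like and ILC1-like cells 111, 87, 109 and 58.9 CPM. Counts cannot show whether the deletion leaves a transcript, so groups are named here by their labels. B-like cells, which do not normally carry these receptors, set the background: they held 32.1, 16.7, 35.4 and 25.9 CPM, with a Klr UMI in 12.5, 6.12, 14.6 and 12.1% of cells at median depths of 3826, 3485, 4889 and 4574 UMIs, against 8533, 9200.2, 6126 and 7206 CPM in NK-like cells.

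Over all 4 libraries 166080 UMIs of the family were counted, of which 21.6% were in NK-like, 20.1% in CD8 T-like, 9.52% in ILC1-like, 7.29% in NKT-like and 7.04% in phagocyte-like cells. Klra4 and Klra8 were the members most bound to NK-like cells, with 79% and 77.8% of their UMIs. At the other end, Klrd1 (CD94, the chain that pairs with Klrc receptors) and Klrk1 (NKG2D, a receptor for stress-induced ligands) had their largest share in CD8 T-like cells, 27.9% and 27.6%. Klrb1b, an inhibitory receptor for Clec2d, had 41.2% in ILC1-like and 27% in NK-like cells. Klrg1, an inhibitory receptor for cadherins, was divided between NK-like (35%), CD8 T-like (27.7%), cycling T-like (10.5%) and regulatory T-like cells (7.32%). Klra2 and Klra17 were outside the lymphocytes: 85.1% of Klra2 UMIs were in phagocyte-like and 8.6% in Kupffer-like cells, and 51.5% of Klra17 UMIs were in pDC-like cells. The heat map of levels by class and library shows this division.

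**Figure D1:**
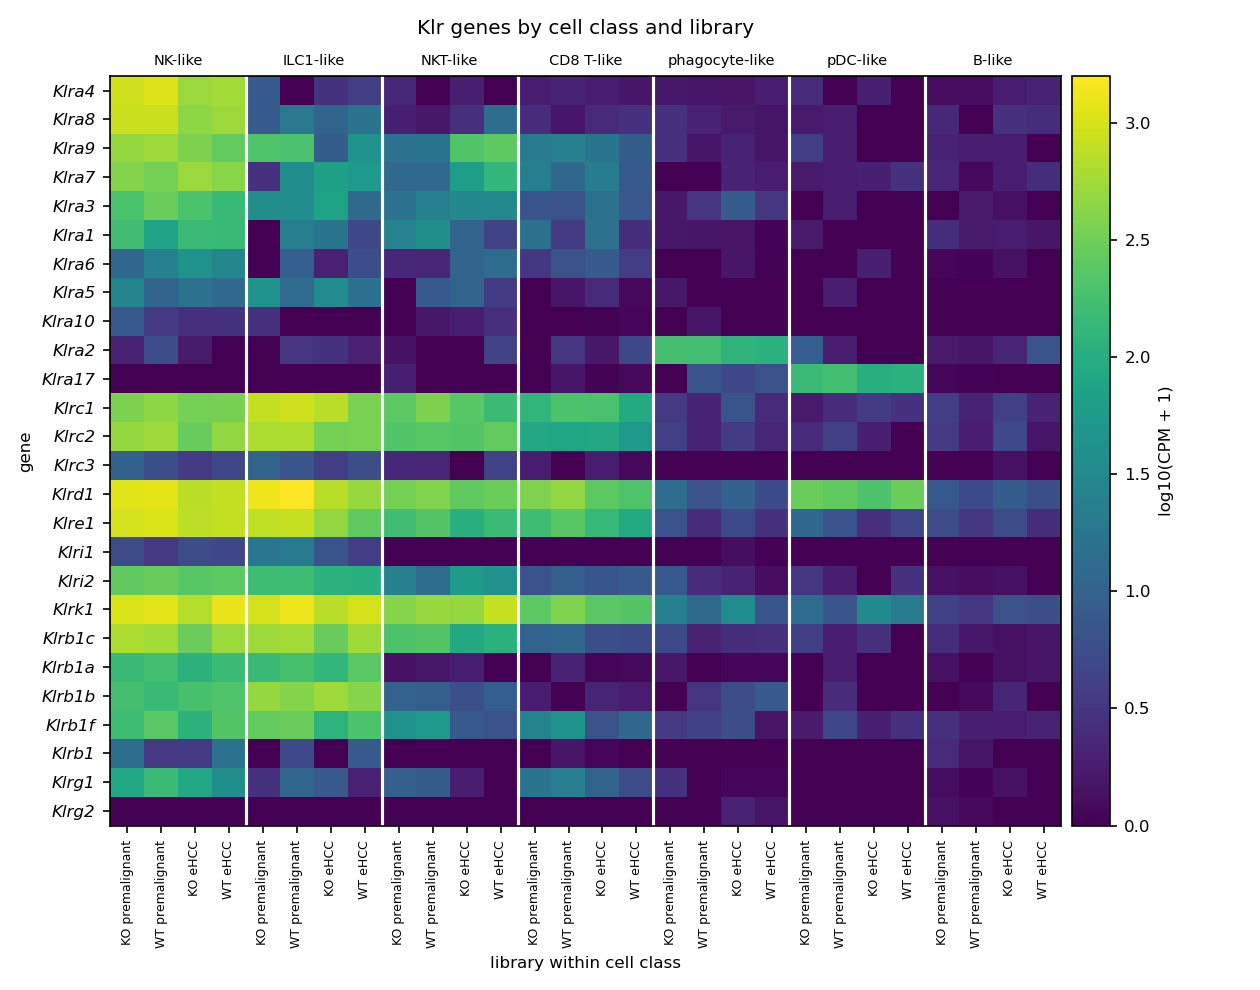
Level of each of the 26 Klr genes (log10 of CPM + 1, colour) in 7 cell classes, with the 4 libraries side by side within each class. Klra4 and Klra8 are bright in NK-like cells, Klra2 in phagocyte-like and Klra17 in pDC-like cells, while Klrd1, Klre1 and Klrk1 run across all NK and T classes.

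The sparsest members were Klra10 (42 UMIs in all), Klrg2 (79), Klrb1 (81), Klrc3 (100) and Klri1 (114). Some others share sequence with a neighbour, so that counting could split or lose their reads. Within the first 500 bases of the transcripts, 70.7% of 90-base windows of Klrb1b also occur in Gm44511. Of those of Klra8, 38.4% occur in another gene, chiefly the pseudogene Klra14-ps. The shares were 24.1% for Klrc3 and 18.7% for Klrc2 (other Klrc genes), and 15.9% for Klrb1c (Gm44511 or Klrb1a). Levels of these genes are uncertain to that extent. Klra4, Klra6, Klra9, Klra7, Klra3 and Klra1 shared no such window.

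Klra4 and Klra8, the activating Ly49 receptors, both of which pair with Tyrobp, were the leading Klra genes of NK-like cells in premalignant liver. Klra4 was at 924, 1088, 529 and 562 CPM. Klra8 was at 875, 874, 458 and 543 CPM. Both libraries of premalignant tissue were thus above both libraries of eHCC for either gene, and the 2 libraries of a stage lay close together. Under the KO label, eHCC against premalignant gave a log2 ratio of -0.81 (95% interval -0.93 to -0.68) for Klra4 and -0.93 (95% interval -1.06 to -0.80) for Klra8. The median log2 ratio over all 6241 genes so measured in these cells was -0.37, with 35.4% of them at least 1.5-fold lower and 6.78% higher. The share of NK-like cells with a Klra4 UMI was 53.7, 59.1, 40.8 and 41.8%, and with every cell thinned to 1000 UMIs 44, 47.3, 27.5 and 25.7%. In the WT eHCC library, cells outside cluster 7 had Klra4 at 735 CPM and Klra8 at 690 CPM.

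The inhibitory Ly49 receptors of NK-like cells did not all follow. Klra9 (Ly49I) was at 498, 539, 372 and 271 CPM, lower in eHCC. Klra7 (Ly49G) was at 399, 339.8, 517 and 424 CPM, with both eHCC libraries at or above the premalignant ones. Without cluster 7, Klra7 of the WT eHCC library was at 397 CPM and thus no longer above the KO premalignant library. Klra3 (Ly49C) was at 195, 296, 197 and 146 CPM, highest in the WT premalignant library. Klra1 (Ly49A) was at 164, 68, 153 and 146 CPM, and its low value in the WT premalignant library came from 28 UMIs in 7 of 93 cells. Klra6 (Ly49F) was at 11.1, 24.3, 43.6 and 28.6 CPM and Klra5 (Ly49E) at 26.6, 9.71, 15.3 and 11.4 CPM, the latter in 4 to 7 cells of 3 libraries and 1 cell of the WT premalignant library. For Klra6 under the KO label, eHCC was above premalignant by a log2 ratio of 1.98 (95% interval 1.05 to 3.08), against the direction of the median gene.

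Each Klra gene's part of the summed UMIs of the 9 lymphoid Klra genes does not depend on such a common shift. In NK-like cells Klra4 took 29.8, 33.6, 23.1 and 26.3% and Klra8 took 28.2, 27, 20 and 25.4%. Klra7 took 12.9, 10.5, 22.6 and 19.9%, so its part was larger in both eHCC libraries than in both premalignant libraries. Outside cluster 7, NK-like cells of the WT eHCC library held 910 such UMIs, 141 of Klra7 and 245 of Klra8. The Klra7 part was thus smaller there without cluster 7. Klra9 took 16.1, 16.6, 16.3 and 12.7%, Klra3 6.28, 9.14, 8.64 and 6.83%, Klra1 5.28, 2.1, 6.68 and 6.83%, Klra6 0.357, 0.749, 1.91 and 1.34%, Klra5 0.857, 0.30, 0.668 and 0.536% and Klra10 0.214, 0.0749, 0.0795 and 0.0893%. As to strain, no library lacked a Klra gene that another held: Klra8, absent from some inbred strains, was in 63.9, 65.6, 51.6 and 52.7% of NK-like cells, Klra4 in a like range, and even Klra10 had 9, 6, 12 and 15 UMIs over all cells. Klrb1c, the NK1.1 antigen gene that also varies between strains, was in 86.6, 87.1, 78.8 and 92.4% of NK-like cells. Reads were counted by gene against a reference, so alleles of another strain would be counted under the nearest reference gene or lost, and these values do not identify a strain.

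**Figure D2:**
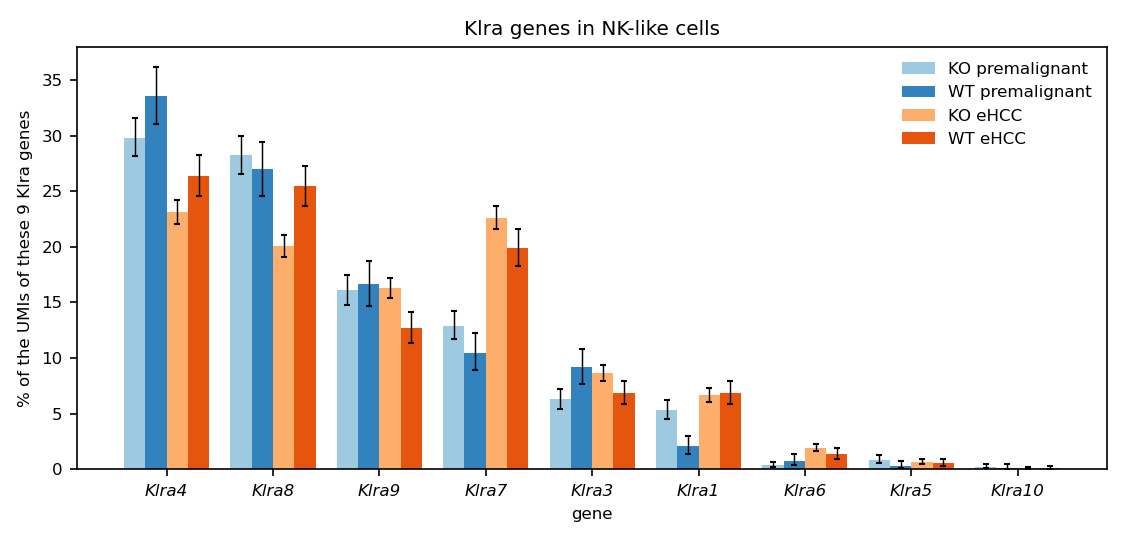
Share of each Klra gene in the summed UMIs of the 9 lymphoid Klra genes of NK-like cells, by library. Bars start at 0 and error bars are 95% Clopper-Pearson intervals for counting error. Klra4 and Klra8 lead in all 4 libraries, except that Klra7 passes Klra8 in the KO eHCC library, and the Klra7 bars are higher in both eHCC libraries.

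Single NK-like cells held several Klra genes at once. With each cell thinned to 3000 UMIs (171, 75, 297 and 176 cells), the median number of lymphoid Klra genes with a UMI was 3, 3, 2 and 2. Cells with 3 or more made up 59.6%, 64.0%, 44.1% and 42.0%, and cells with none 9.94%, 10.7%, 13.5% and 18.8%. Among ILC1-like cells 68.1%, 74.7%, 83.5% and 86.9% had none, so the 2 classes were far apart in every library. Without thinning, cells with 3 or more were 58.8% of the KO eHCC and 50.5% of the WT eHCC NK-like cells, beside 63.9% and 63.4% in premalignant liver, so the gap between stages was smaller in that count.

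The activating pair overlapped in part. Among NK-like cells with a Klra4 UMI, 78.4, 80, 72.8 and 71.4% also held Klra8, against 47, 44.7, 37 and 39.3% of cells without Klra4. Klrc1 (NKG2A, which pairs with Klrd1 and inhibits on contact with the MHC molecule encoded by H2-T23) showed the opposite. It was in 22.4, 38.2, 32 and 32.5% of the cells with a Klra4 UMI and in 73, 68.4, 72.4 and 60.7% of those without. The same held between Klra8 and Klrc1: 38.4, 42.6, 40.5 and 35.1% of cells with Klra8 and 59, 65.6, 72.3 and 64.4% of cells without it held Klrc1. Klrc1 thus marked more of the Klra4-negative and Klra8-negative cells in all 4 libraries. Depth moves with detection, and its part in these shares was not tested. Within cluster 9 of the KO eHCC library, Klrc1 was in 33.3% of cells with a Klra4 UMI and in 70.9% of the others. Their median depths were 10514 and 8681 UMIs. Within cluster 7 of the WT eHCC library the 2 shares were 32.7% and 65.8%, at median depths of 6111 and 5127 UMIs. Within cluster 2 of the KO premalignant library they were 22.7% and 76.4%, at 3333.5 and 3527 UMIs. For Klra8 the gap was absent in 1 such cluster: in cluster 2 of the KO premalignant library, 45.8% of cells with Klra8 and 50% of those without held Klrc1. Klra4 and Klra8 were not set against each other within clusters, so the part of depth in their overlap was not tested.

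**Figure D3:**
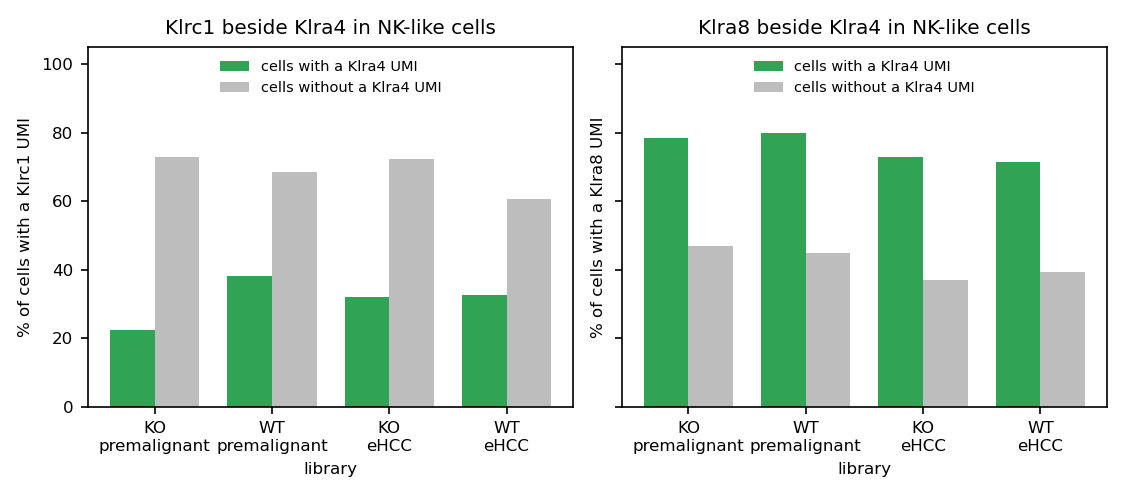
Share of NK-like cells with a Klrc1 UMI (left) or a Klra8 UMI (right) among cells with and without a Klra4 UMI, by library, as deposited UMIs without thinning. Klrc1 is rarer and Klra8 more frequent in the Klra4-positive cells of each of the 4 libraries.

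ILC1-like cells carried few Ly49 genes and more Klrc1 and Klrb1b than NK-like cells. All Klra genes together were at 307, 326, 211 and 148 CPM in ILC1-like and 3100.3, 3246, 2287 and 2132 CPM in NK-like cells. Klrb1b was at 487, 398, 537 and 417 CPM in ILC1-like and 179, 141, 182 and 209 CPM in NK-like cells, higher in ILC1-like cells in every library. Klrc1 was at 807, 939, 737 and 362 CPM against 372, 454, 335 and 347 CPM, so that the excess in ILC1-like cells held in 3 libraries and was small in WT eHCC. Klra9 was the main Ly49 gene of ILC1-like cells in premalignant liver, at 207, 191, 7.75 and 42.3 CPM. In eHCC it rested on 8 UMIs under the KO label and 43 under the WT label, with a log2 ratio of eHCC to premalignant of -4.74 (95% interval -5.99 to -3.71) under the KO label, where 27.9% of all genes were at least 1.5-fold lower and 9.32% higher. With ILC1-like cells defined by gates on marker UMIs this ratio was -1.81, and the ratio of KO to WT in eHCC turned from -2.45 to 0.55. With called doublets kept, the values were -3.45 and -1.0. In the KO eHCC library Klra7 of ILC1-like cells stood on 6 cells, 1 of which held 63.8% of its UMIs.

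Klrd1, the common partner chain, was high in both classes, at 1097, 1163, 739.7 and 802 CPM in NK-like and 1302, 1574, 724 and 509 CPM in ILC1-like cells. Both eHCC libraries were below both premalignant ones in either class. Klre1, which pairs with Klri1 or Klri2, was at 953, 1056, 767 and 796 CPM in NK-like and 772, 830.1, 474 and 263 CPM in ILC1-like cells. In ILC1-like cells of eHCC, Klre1 was higher under the KO label, with a log2 ratio of 0.85 (95% interval 0.63 to 1.07), and so was Klrc1, with 1.03 (95% interval 0.84 to 1.21), where 12.3% of all genes were at least 1.5-fold higher and 11.6% lower. Klri2 was at 263, 289, 232 and 249 CPM in NK-like cells, with overlapping intervals between labels at each stage. Klrk1 was at 1033, 1168, 689.9 and 1247 CPM in NK-like cells, lowest in the KO eHCC library, and Klrc2 (NKG2C, an activating partner of Klrd1) at 489, 541, 287 and 474 CPM, also lowest there.

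The activating Klrb1 receptors Klrb1c, Klrb1f and Klrb1a were lowest in the KO eHCC library as well. Klrb1c was at 534, 536, 289 and 536 CPM in NK-like and ILC1-like cells together, the other 3 libraries being nearly equal. Klrb1f was at 198, 253, 113 and 207 CPM. Klrb1a was at 131, 161, 118 and 194 CPM. The inhibitory Klrb1b did not differ in this way, at 256, 249.6, 279.5 and 306 CPM. Klrg1 was at 49.3, 69, 61.6 and 19.5 CPM, lowest in the WT eHCC library. In that library it had 40 UMIs in NK-like cells, of which 1 was in the 122 cells of cluster 7. Outside that cluster its level was 110 CPM over 62 cells, against 82.2 CPM in the KO eHCC library, so the direction turned without cluster 7.

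To count differences between libraries, a gene was called where the CPM differed at least 1.5-fold and both libraries together held at least 50 UMIs. In NK-like and ILC1-like cells of premalignant liver, 2 of 19 Klr genes so measured were higher under the KO label and none was lower, where 13.5% of all 6410 genes were higher and 4.13% lower. The 2 genes were Klra1, with a log2 ratio of 1.28 (95% interval 0.88 to 1.69), and Klra5, with 2.32 (95% interval 1.37 to 3.43). Klra1 had 12 positive cells and Klra5 had 2 in the WT library. The cluster with both Cd3e and Ncr1 UMIs held 37 of the 84 Klra5 UMIs of the KO library and none of the 10 of the WT library. Without its cells, Klra5 had a log2 ratio of 1.57 (95% interval 0.57 to 2.72) and Klra1 1.27 (95% interval 0.75 to 1.81), and these 2 of 18 genes were called. The count with these cells kept, 2 of 19, is near the share of all genes. The median over the 19 Klr genes was -0.05, beside 0.08 over all genes.

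In eHCC more Klr genes differed between the labels: 7 of 19 were higher and 4 lower in NK-like and ILC1-like cells of the library labelled KO, where 8.85% of all genes were higher and 15.7% lower. The inhibitory Ly49 genes were on the higher side. Klra3 had a log2 ratio of 1.06 (95% interval 0.81 to 1.31), Klra9 0.77 (95% interval 0.59 to 0.95) and Klra7 0.72 (95% interval 0.58 to 0.87). Klra6 (0.69), Klra1 (0.60), Klra5 (0.72, from 10 and 8 cells) and Klrg1 (1.66) were the others. On the lower side stood the activating receptors Klrb1c at -0.89 (95% interval -1.01 to -0.77), Klrb1f at -0.88, Klrb1a at -0.71 and Klrk1 at -0.67. The activating Klra4 (0.40) and Klra8 (0.22) were under the threshold on the higher side in this joint class. The makeup of the cells moved with these ratios, and its part in them was not tested. NK-like cells were 306 of 430 cells under the KO label and 184 of 334 under the WT label, and cluster 7 was found under the WT label almost alone. Within NK-like cells only, Klra3 (0.44), Klra9 (0.46) and Klra7 (0.29) were under the threshold and Klra6 (0.61) and Klrg1 (1.11) past it on the higher side, while Klrb1c (-0.84), Klrb1f (-0.97), Klrk1 (-0.85) and Klrc2 (-0.72) were lower under the KO label, where 13.5% of all genes were lower and 10.3% higher. Klra4 and Klra8 were on the lower side under the KO label within NK-like cells. Without cluster 7, Klra4 was at 529 CPM under KO against 735 CPM under WT, and Klra8 at 458 against 690 CPM. Klra3 turned to the lower side there, at 197 against 242 CPM. Klra9 (372 against 307 CPM) and Klra7 (517 against 397 CPM) stayed higher under KO. With NK-like and ILC1-like cells defined by gates on marker UMIs, 7 of the family were called in place of 11, and Klra5 turned to -0.029.

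Between the stages, 5 of 19 Klr genes were lower and none higher in eHCC under the KO label, where 38% of all genes were lower and 5.68% higher. These were Klra5 (-1.21), Klrb1c (-0.89), Klrb1f (-0.81), Klrc2 (-0.79) and Klrd1 (-0.64). Without the cluster with both Cd3e and Ncr1 UMIs, Klra5 was at -0.69, and 7 genes were lower and 2 higher: Klra4 (-0.60) and Klra8 (-0.72) joined those lower, and Klra6 (2.2) and Klra7 (0.64) were higher. Measured from the median of all genes (-0.41) with these cells kept, 3 were higher and 1 lower. The shares of all genes given here were counted with these cells kept and not from the median, so they do not match these 2 alternative counts. Under the WT label 7 of 18 were lower and none higher, where 19.1% of all genes were lower and 5.94% higher. Here Klrg1 (-1.83), Klra9 (-1.07), Klrd1 (-1.04), Klrc1 (-0.90), Klra3 (-0.84), Klre1 (-0.78) and Klra4 (-0.61) were lower. From the median of all genes, 5 were lower and none higher, with no share of all genes so centred. With cells thinned to 1000 UMIs, Klra3 turned to 0.068.

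**Figure D4:**
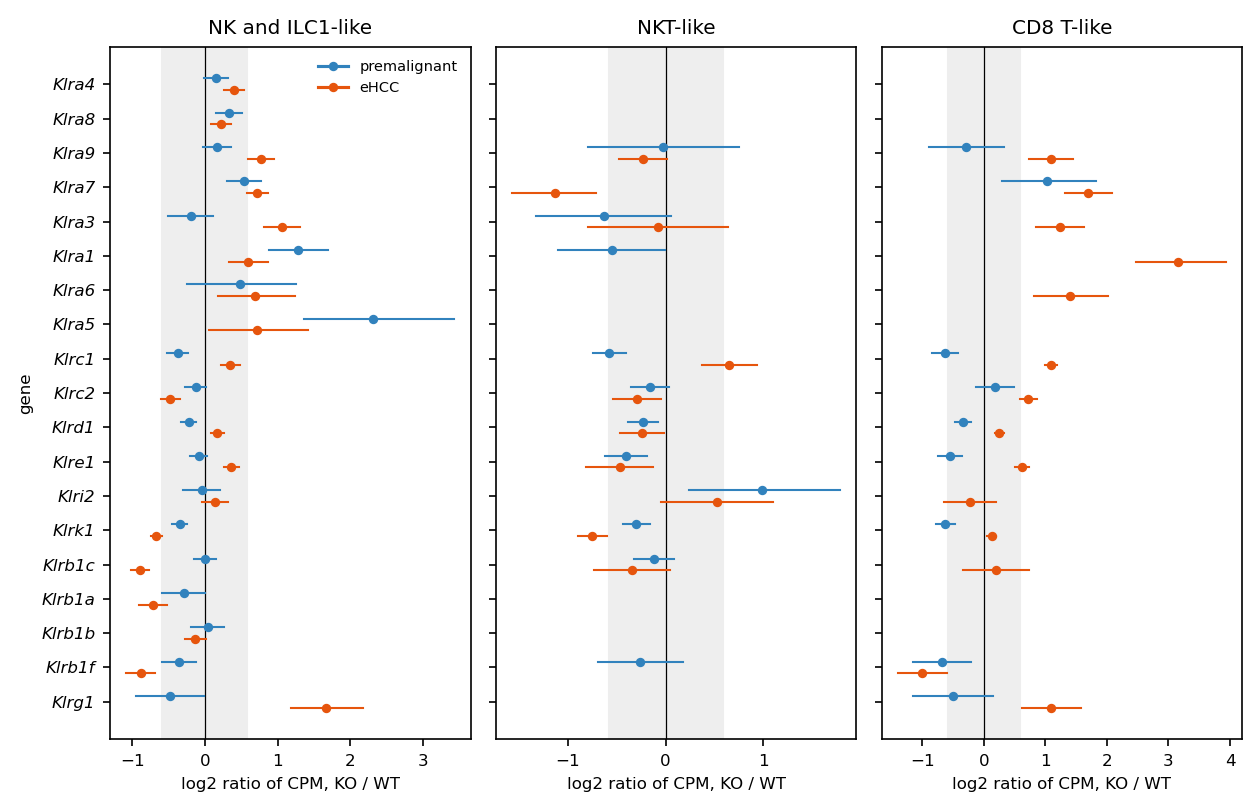
Log2 ratio of CPM, library labelled KO over WT, for 19 Klr genes, drawn where both libraries together held at least 50 UMIs, in 3 classes and at both stages (Klra2 is not drawn). Lines are 95% intervals for counting error, the grey band lies within 1.5-fold, and the horizontal range differs between panels. In CD8 T-like cells most eHCC points lie to the right, and in NK-like and ILC1-like cells the Klrb1c, Klrb1f, Klrb1a and Klrk1 points of eHCC lie to the left.

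NKT-like cells (495, 373, 149 and 176) are T cells with Cxcr6, Il2rb and in part Zbtb16, which had a UMI in 27.7%, 23.6%, 30.9% and 15.9% of them. Their Ly49 genes differed between the stages. Klra9 was at 15.8, 16.1, 214 and 251 CPM, in 3.23, 2.68, 30.2 and 38.1% of cells. Klra7 was at 11.3, 11.3, 58.6 and 129 CPM. Klra1 went the other way, at 25.3, 37, 9.34 and 3.57 CPM. Of the lymphoid Klra UMIs of these cells, Klra9 thus made up 22, 16.5, 64.1 and 56.4% and Klra1 35.2, 37.8, 2.8 and 0.803%. The log2 ratio of eHCC to premalignant for Klra9 was 3.76 (95% interval 3.25 to 4.31) under the KO label and 3.96 (95% interval 3.39 to 4.59) under the WT label. Klri2 was higher in eHCC under both labels (1.22 and 1.68), and Klrb1c (-1.20 and -0.98) and Klrb1f (-2.64 and -3.24) lower.

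Under each label 4 of 12 Klr genes of NKT-like cells were higher and 4 lower in eHCC. Of all genes, 5.52% were higher and 42.9% lower under the KO label, and 4.54% and 25.3% under the WT label. NKT-like cells of the 2 stages came from different clusters: cluster 0 in premalignant liver, cluster 26 in KO eHCC and cluster 33 in WT eHCC. Those of eHCC were deeper (median 4220, 4299, 7607 and 6298 UMIs), and with cells thinned to 1000 UMIs, Klra9 was in 1.62, 1.08, 14.8 and 19.9% of them. Between labels, premalignant NKT-like cells had 1 of 11 genes higher (Klri2, 0.99) and 1 lower (Klra3, -0.63), where 10.4% and 4.57% of all genes were called. In eHCC, Klrc1 (0.65) was higher and Klrk1 (-0.75) and Klra7 (-1.14) lower of 10 genes, where 10.1% and 11.5% of all genes were called. Gates on marker UMIs in place of clusters turned Klra3 of premalignant liver to 0.36 and Klrk1 and Klra7 of eHCC to 0.39 and 1.04, and brought Klra1 between KO stages to 0.011.

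**Figure D5:**
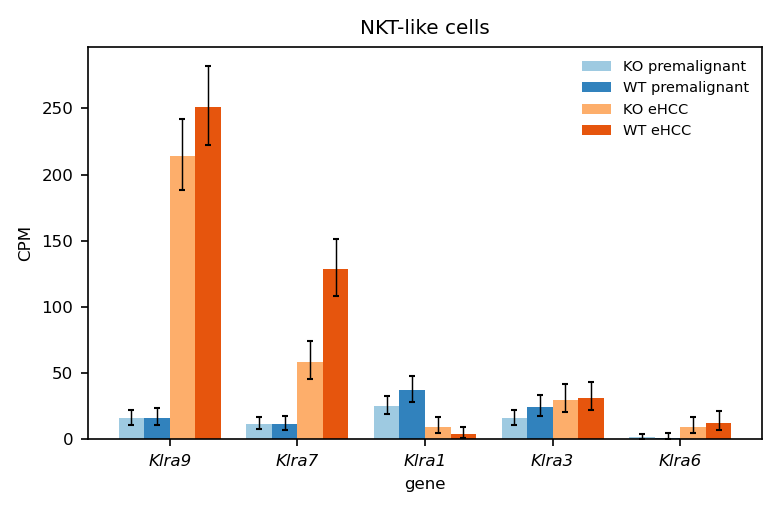
Levels (CPM) of 5 inhibitory Klra genes in NKT-like cells by library, with 95% Poisson intervals for counting error and bars from 0. Klra9 and Klra7 are higher in both eHCC libraries than in both premalignant ones, and Klra1 is lower.

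CD8 T-like cells (617, 452, 2635 and 1823) carried the Klrc and Klrk1 receptors in a large part and Ly49 genes in few cells. Klrc1 was at 128, 198, 192 and 90.2 CPM, in 25.1, 29, 42.1 and 22.2% of cells. Klrd1 was at 375, 474, 245 and 207 CPM and Klrk1 at 249, 385, 238 and 218 CPM. The WT premalignant library was thus the highest for Klrc1, Klrd1 and Klrk1, and the WT eHCC library the lowest. Of the Ly49 genes, Klra7 was at 22.1, 10.8, 21.2 and 6.55 CPM and Klra1 at 14.1, 2.57, 14.8 and 1.66 CPM. In the KO premalignant library 48.3% of the Klra7 UMIs came from a single cell, and its ratio turned to -0.28 with cells thinned to 1000 UMIs.

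Between labels in premalignant CD8 T-like cells, 1 of 9 Klr genes was higher under KO (Klra7) and 3 lower (Klrc1, Klrk1 and Klrb1f), where 11.6% of all genes were higher and 4.45% lower. The log2 ratio was -0.63 (95% interval -0.85 to -0.42) for Klrc1 and -0.63 (95% interval -0.78 to -0.47) for Klrk1. In eHCC 9 of 15 were higher under the KO label and 2 lower, where 7.71% of all genes were higher and 14.3% lower. Those higher were Klra1 (3.15), Klra7 (1.69), Klra6 (1.40), Klra3 (1.23), Klrc1 (1.09), Klrg1 (1.08), Klra9 (1.08), Klrc2 (0.72) and Klre1 (0.62). Klrb1f (-1.0) and Klra2 (-2.66) were lower. The median over the Klr genes was 0.72, beside -0.09 over all genes. Klra2 is a phagocyte gene, and the summed phagocyte markers in these cells were 114, 163, 155 and 613 CPM, so they were highest in the same library as Klra2; their part in its ratio was not tested. The cells of the 2 eHCC libraries also came from different clusters, 13, 25, 30 and 31 under KO and 23, 24 and 34 under WT, whose part in these ratios was not tested. Thinned to 1000 UMIs a cell, 4 genes were called in place of 11, with fewer genes over the minimum.

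Across stages the CD8 T-like cells of the 2 labels differed in count. Under the WT label 9 of 12 Klr genes were lower in eHCC and none higher, where 18.5% of all genes were lower and 5.47% higher, and 7 were lower once the median of all genes was taken off. Under the KO label 2 of 14 were higher, Klra6 (1.67) and Klra3 (1.39), and 4 lower, where 6.21% and 38.2% of all genes were called. From the median of all genes these became 4 higher and 1 lower. The shares of all genes given for both labels are not centred in this way. The lower one in every count was Klrb1f (-2.35 under KO and -2.03 under WT). The difference between the labels in the stage change was not tested.

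Klra2 and Klra17, the members outside the lymphocytes, were near equal between labels in the class that held most of their UMIs. Klra2 was at 178, 174, 118 and 111 CPM in phagocyte-like cells (190, 226, 1010 and 3482 cells), in 65.3, 62.8, 59 and 66.3% of them. Its log2 ratio of KO to WT was 0.03 (95% interval -0.20 to 0.26) in premalignant liver and 0.09 (95% interval 0.01 to 0.17) in eHCC. From premalignant to eHCC it was -0.59 (95% interval -0.77 to -0.41) under KO and -0.65 (95% interval -0.81 to -0.48) under WT, beside -0.18 and -0.20 for the median gene, where 24% and 24.7% of all genes were at least 1.5-fold lower and 11.5% and 13.1% higher. Over all cells Klra2 stood at 8.4, 13.9, 21.7 and 65.5 CPM, in the order of the numbers of phagocyte-like cells. Klra17 was at 149.7, 168, 99.3 and 109 CPM in pDC-like cells (144, 143, 88 and 51 cells), and pDC-like cells also held Klrd1 at 297, 258, 203 and 300.4 CPM. A further 30.3% of all Klra17 UMIs were in phagocyte-like cells, at 0, 5.69, 3.79 and 5.18 CPM, not equal between the premalignant labels. In phagocyte-like cells Klrk1 was at 24.3, 11.9, 34.9 and 5.82 CPM, in the same order as the summed T-cell markers there (94.9, 32.6, 162 and 63.3 CPM) except in the lowest pair; their part in it was not tested.

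Adaptors and ligands of the receptors were taken from fixed lists. In NK-like and ILC1-like cells Tyrobp, the adaptor of Klra4 and Klra8, was at 1732, 2067, 2011 and 1377 CPM, and Hcst, the adaptor of Klrk1, at 696, 658, 596 and 578 CPM. Cd247, a signalling chain, was at 106, 103, 76.1 and 33.2 CPM, lowest in WT eHCC. Of 16 adaptor and signalling genes measured, 1 was higher under KO in premalignant liver (Vav1) and none lower. In eHCC 2 were higher (Cd247 and Sh2d1a) and 1 lower (Ptpn6, the phosphatase SHP-1 that inhibitory receptors recruit, at 116, 134, 56.8 and 122 CPM). Of all genes, 13.5% were higher and 4.13% lower in premalignant liver, and 8.85% and 15.7% in eHCC. Between stages 8 adaptor and signalling genes were lower and 1 higher in eHCC under KO, where 38% of all genes were lower and 5.68% higher. Under WT 5 were lower and none higher, where 19.1% of all genes were lower and 5.94% higher. Without the cluster with both Cd3e and Ncr1 UMIs, 8 in all were called under WT.

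MHC class I genes, the ligands of Klra and Klrc receptors, differed by label in eHCC. H2-T23, whose product (Qa-1) is read by Klrc1, was at 425, 398, 481 and 176 CPM in phagocyte-like and 458, 464, 515 and 265 CPM in NK-like and ILC1-like cells. H2-K1 was at 1560.1, 1767, 1955 and 907 CPM and H2-D1 at 2557, 2806, 3006 and 1357 CPM in phagocyte-like cells. The WT eHCC library was the lowest for all 3 genes, with log2 ratios of KO to WT in phagocyte-like cells of 1.45 (95% interval 1.40 to 1.49), 1.11 (95% interval 1.09 to 1.13) and 1.15 (95% interval 1.13 to 1.16), where 13.7% of all genes were at least 1.5-fold higher and 20% lower. Clec2d, the ligand of Klrb1b, was at 255, 285, 60.7 and 74.8 CPM over all cells, lower in both eHCC libraries. The makeup of the libraries differed as well, with 1588, 2747, 521 and 371 B-like cells. Its part in this and the next levels over all cells was not tested. The ligands of Klrk1 were sparse: over all cells Ulbp1 was at 11.8, 11.6, 6.14 and 4.96 CPM, Raet1e at 0.419, 0.248, 0.196 and 2.43 CPM and Raet1d at 0.419, 0.259, 0.249 and 1.16 CPM, the last 2 highest in WT eHCC. For Ulbp1 under WT, the log2 ratio of eHCC to premalignant was -1.22 over all cells but -0.07 in CD8 T-like cells. Under KO it was -0.95 over all cells and -1.33 in CD8 T-like cells. Cdh1, the ligand of Klrg1, was at 7.84, 2.84, 2.11 and 50.8 CPM in NK-like and ILC1-like cells, highest in WT eHCC. It was highest in that library also in NKT-like (82.2 CPM), CD8 T-like (59.8 CPM) and mature DC-like cells (60.6 CPM). This did not hold in every class: in pDC-like cells Cdh1 was at 94, 53.2, 55.9 and 56.4 CPM.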

How the data were processed

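Livers were read as 4 single-cell libraries. The authors deposited a matrix of UMI counts for each library, and its header names Cell Ranger 3.0.1. Per the submitters' processing notes, bcl2fastq 2.20.0, Cell Ranger, mm10 and GRCh38 are named without roles. Counts are whole numbers, not normalized. Totals were 56458438, 96593761, 93920711 and 118594527 UMIs.

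Cells with at least 500 UMIs, 300 genes and at most 25% mitochondrial UMIs were kept, and doublets called by scrublet (scanpy 1.11.5) removed (676, 868, 581 and 795); in the eHCC libraries its own threshold marked few cells, so the top-scoring share was removed. Leiden clusters (leidenalg 0.10.2) were made without Klr genes and named from marker lists; a name is thus rebuilt. UMIs were summed per class. Klr genes with at least 50 UMIs in both libraries together and 100 cells in each were compared; a 1.5-fold ratio was called. Intervals came from scipy 1.17.1, checked on simulated data. Sequences were matched by symbol for 23 of 26 genes and aligned with Biopython 1.88. Members, lists and rules were chosen with earlier results of these data known. Alternatives changed the doublet and mitochondrial filters, clustering, classes, depth, thresholds and centring. Raet1a, Raet1b, Raet1c, Clec2f, Clec7a and Cd244a were not analysed here. 1 cell class is not reported here.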

Additional observations from a re-analysis of the deposited data

Results flagged for a closer look

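Klrc1 and Klrg1 differed in direction between parallel comparisons; in each case the difference itself was not tested, since each side is 1 pair of libraries. Klrc1 of CD8 T-like cells had a log2 ratio of KO to WT of -0.63 in premalignant liver and 1.09 in eHCC, with 128, 198, 192 and 90.2 CPM. Klrg1 of NK-like cells, chosen after its values were seen since the WT premalignant library held 93 NK-like cells, had a log2 ratio of KO to WT of -0.878 in premalignant liver and 1.11 in eHCC; without cluster 7 the latter was -0.42.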

How the results depend on the processing

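No paired analysis was possible because each group is 1 library. Of 236 summary values under the 13 alternatives, 185 stayed within 1.5 times of the reported count or within its interval, and 51 moved. Of 2141 ratios of single genes, 345 moved beyond their counting interval and a further 16 were counted as turned in direction. The cause of these changes was not tested, except that thinning leaves fewer UMIs and genes over the minimum, and a 2-fold threshold calls fewer genes.

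Klr genes past the fold, with cells thinned to 1000 UMIs, numbered 0 (reported 2) and 1 (3) in NKT-like cells between labels in premalignant liver and eHCC, and 2 (8) and 3 (8) between stages under KO and WT. In the same order they were 1 (4), 4 (11), 1 (6) and 4 (9) in CD8 T-like cells; adaptors between stages under WT were 3 (5). With a fold of 2 the Klr counts were 2 (11), 1 (5) and 3 (7) in NK-like and ILC1-like cells (eHCC, KO stages, WT stages), 0 (2) and 1 (3) in NKT-like cells and 1 (4) and 3 (6, KO stages) in CD8 T-like cells, and the adaptors 0 (1), 1 (9) and 1 (5). Less the median of all genes, adaptors were 0 (1), 5 (3) and 4 (9) and NKT-like Klr genes of premalignant liver 4 (2). With cells weighted equally, adaptors of premalignant liver were 2 (1). The shares of all genes given above belong to the reported setting, not to these alternatives.

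With classes from gates on marker UMIs, which were run for NK-like, ILC1-like and NKT-like cells but not for CD8 T-like cells, Klr counts were 7 (11) in NK-like and ILC1-like cells of eHCC, 0 (2) in premalignant NKT-like cells and 5 (8) between NKT-like stages under KO, and adaptors of premalignant liver 3 (1). Family levels were 7925, 5447 and 5591 CPM in the KO premalignant, KO eHCC and WT eHCC libraries (reported 7341, 5661 and 5698). Klra4 made up 32.1% (KO premalignant) and 30.3% (WT eHCC) and Klra8 22.6% (WT eHCC) of Klra UMIs, and NK-like cells with 3 or more Klra genes 71.4% (KO premalignant) and 38.0% (KO eHCC). With detection at 2 UMIs these cells were 40.9%, 41.3%, 23.6% and 20.5%, and unthinned 58.8% and 50.5% in eHCC. With doublets kept, the family was at 5312 and 5474 CPM in KO and WT eHCC and Klra8 at 19.0% in KO eHCC. Without cluster 7 Klra4 was at 28.7% in WT eHCC. Without the cluster with both Cd3e and Ncr1 UMIs, an alternative chosen after seeing the data, 9 (5) Klr genes of NK-like and ILC1-like cells were called between KO stages, adaptors were 2 (1) in premalignant liver and 8 (5) between WT stages, and the family was at 7759 and 8130 CPM in the KO and WT premalignant libraries (7341 and 7745).

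Turned log2 ratios were as follows. With Klr genes in the clustering, Klra7 of premalignant CD8 T-like cells was -0.29. Thinned, Klra7 was -0.28 there, Klra3 was 0.068 in NK-like and ILC1-like cells between WT stages and -0.078 in NKT-like cells between KO stages, and Klrg1 of CD8 T-like cells 0.58 between KO stages. Under gates, Klra5 of NK-like and ILC1-like cells in eHCC was -0.029. In NKT-like cells under gates, Klra3 was 0.36 in premalignant liver, Klrk1 0.39 and Klra7 1.04 in eHCC, Klre1 0.36 and Klra1 0.011 between KO stages and Klrk1 -0.61 between WT stages. In ILC1-like cells under gates, Klra9 was 0.55 in eHCC and Klra7 and Klra3 -0.10 and -0.66 between KO stages. Without cluster 7, Klrg1 of NK-like cells in eHCC was -0.42. Klra3 (197 CPM under KO against 242 CPM under WT) and Klra1 (153 against 175 CPM) also turned there. They are not counted among the 16. NK-like values rest on 93 to 306 cells a library, and Klra5 on 1 to 7 of them.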

Other observations

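Transcription factors of NK cells were measured in the same NK-like and ILC1-like cells. Of their fixed list, only Eomes, Nfil3 and Zeb2 are given here. Eomes, which marks NK cells over ILC1, was at 176, 102, 193 and 123 CPM, in cells of which 216 of 380, 93 of 214, 306 of 430 and 184 of 334 were NK-like. In NK-like cells alone it was at 323, 223, 260.4 and 219 CPM. Nfil3, a factor needed for NK development, was at 64.4, 56.7, 109 and 48.4 CPM, highest in the KO eHCC library. Zeb2, a factor of NK maturation, was at 283, 225, 68.4 and 92.1 CPM, lower in both eHCC libraries. Between stages, 38% of all genes were at least 1.5-fold lower and 5.68% higher under KO. Under WT these shares were 19.1% and 5.94%.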
